A study of Homo sapiens with 18 samples.

Results

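The genes of the circadian clock's repressor arms were examined for nearby binding of the glucocorticoid receptor (GR). The 9 genes were PER1, PER2, PER3, CRY1, CRY2, NR1D1, NR1D2, BHLHE40 and BHLHE41. A GR binding region (GBR) was counted for a gene when the summit of a called ChIP-seq peak lay within 100 kb of the transcription start site (TSS) of that gene's canonical transcript, and overlapping peaks of different lists were merged. Of the 9736 merged GBR of the whole series, 19 were chosen in this way, and they lay near 5 of the 9 genes. The rule uses position alone and no occupancy value, although the genes themselves were proposed with results of these data known.

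The cells were U2OS-GRα, a human osteosarcoma line stably transformed to express GRα. Every sample received siRNA 48 h before 100 nM dexamethasone (dex), a synthetic glucocorticoid, was added for 1 h, so no list describes untreated cells. The 6 siRNA combinations were siNS/siNS, in which only a non-specific siRNA was used, siHic5/siNS, siCHD9/siNS and siBRM/siNS, which each deplete the 1 named protein, and siCHD9/siHic5 and siBRM/siHic5, which deplete Hic-5 together with CHD9 or BRM. Hic-5 is a coregulator that associates with steroid receptors, and CHD9 and BRM are ATP-dependent chromatin remodelers. Each combination had 2 GR ChIP libraries from different days and 1 input library, and the ChIP replicates were pooled by the authors before the list was made. Each list is therefore 1 value per condition with no spread between replicates, and the lists allow no test between conditions. The authors' own replicate-based comparisons of GBR were not used here.

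In the molecular clock, the CLOCK and BMAL1 heterodimer binds E-boxes and drives the PER and CRY genes, whose proteins return to the nucleus and repress CLOCK and BMAL1. NR1D1 and NR1D2 encode the REV-ERB nuclear receptors, which repress BMAL1 transcription in a second loop, and BHLHE40 and BHLHE41 encode the DEC proteins, which compete at E-boxes. Glucocorticoids reset clocks in peripheral tissues, and PER1 is a long known GR target gene.

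The sequences under the summits of the GBR nearest to each TSS and of the strongest GBR of each gene are shown first, since they are the sites on which the results below turn. All are from the plus strand of GRCh38, and capitals mark the best match to the GR response element (GRE) within 100 bp of the summit. The GRE was searched as AGAACA, 3 free bases and the reverse complement of AGAACA. Names give the gene and the distance of the summit from its TSS, negative upstream. The PER1 windows were chr17:8154420-8154500 and chr17:8151869-8151949, the CRY2 windows chr11:45766649-45766733 and chr11:45880297-45880435, and the NR1D1 windows chr17:40101256-40101391 and chr17:40075232-40075312. The NR1D2 window was chr3:23959520-23959639 and the BHLHE40 window chr3:4978888-4979026.
PER1 -2.06 kb: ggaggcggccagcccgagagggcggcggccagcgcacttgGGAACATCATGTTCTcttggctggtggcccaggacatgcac
PER1 0.495 kb: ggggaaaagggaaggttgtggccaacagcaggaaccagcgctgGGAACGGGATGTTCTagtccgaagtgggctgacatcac
CRY2 -80.8 kb: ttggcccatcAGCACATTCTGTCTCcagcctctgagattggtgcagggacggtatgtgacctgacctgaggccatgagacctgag
CRY2 32.9 kb: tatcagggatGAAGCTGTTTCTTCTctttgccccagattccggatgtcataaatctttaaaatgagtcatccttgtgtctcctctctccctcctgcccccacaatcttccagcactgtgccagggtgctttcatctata
NR1D1 -0.762 kb: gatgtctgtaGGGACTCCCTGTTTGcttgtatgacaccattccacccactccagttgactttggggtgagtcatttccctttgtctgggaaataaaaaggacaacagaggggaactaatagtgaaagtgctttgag
NR1D1 25.3 kb: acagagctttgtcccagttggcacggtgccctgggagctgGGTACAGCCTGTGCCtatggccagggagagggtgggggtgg
NR1D2 14.3 kb: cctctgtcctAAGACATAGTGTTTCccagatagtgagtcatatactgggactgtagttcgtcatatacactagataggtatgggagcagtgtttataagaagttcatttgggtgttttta
BHLHE40 -0.451 kb: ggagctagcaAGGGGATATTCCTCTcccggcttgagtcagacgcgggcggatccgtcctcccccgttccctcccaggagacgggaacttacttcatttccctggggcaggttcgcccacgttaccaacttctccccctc

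The capitals matched 11 of the 12 defined GRE bases at PER1 -2.06 kb and 10 of 12 at PER1 0.495 kb. They matched 8 of 12 at CRY2 -80.8 kb, NR1D1 25.3 kb and NR1D2 14.3 kb, and 7 of 12 at CRY2 32.9 kb, NR1D1 -0.762 kb and BHLHE40 -0.451 kb. A match with at least 10 bases was counted as a GRE, so the PER1 sites were the only ones of these 8 with a GRE.

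A further pair of sequences, chosen after the values were seen, is shown for the E-box CACGTG, the element of CLOCK, BMAL1 and the DEC proteins. The first is the summit of the GBR in the first kilobases of NR1D1 (chr17:40099104-40099184), and the second is the stretch of 250 bases before the RefSeq start of BHLHE40 (chr3:4979187-4979436, GRCh38.p14). Both are plus strand, with each E-box in capitals.
NR1D1 1.45 kb: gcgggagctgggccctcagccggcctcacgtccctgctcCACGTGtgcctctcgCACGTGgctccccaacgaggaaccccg
BHLHE40 promoter: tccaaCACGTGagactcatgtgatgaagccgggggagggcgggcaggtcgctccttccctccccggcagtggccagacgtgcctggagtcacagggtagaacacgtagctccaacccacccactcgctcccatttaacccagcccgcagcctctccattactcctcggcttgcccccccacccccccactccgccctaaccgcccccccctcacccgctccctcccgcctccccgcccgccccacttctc

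The 6 lists held 1278 to 9533 peaks. Their lowest −log10 q-value lay between 7.26 and 8.91 in 5 lists and was 14.2 for siBRM/siHic5, so the lists were not cut at the same level. The lists do not hold the read depth of the libraries. A GBR missing from a list was not called there, which does not show that GR was absent, and a weaker peak can come from fewer cells with bound GR or from less GR per cell, which ChIP-seq cannot tell apart. The lists do not measure how far each protein was depleted.

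Clock genes had 5 GBR in siNS/siNS, 19 in siHic5/siNS, 2 in siCHD9/siNS, 3 in siBRM/siNS, 9 in siCHD9/siHic5 and 9 in siBRM/siHic5. These were 0.194% of the siNS/siNS list and 0.199% of the siHic5/siNS list, nearly the same share of lists of unequal length. In the other lists the share was 0.141% for siCHD9/siNS, 0.235% for siBRM/siNS, 0.367% for siCHD9/siHic5 and 0.266% for siBRM/siHic5. All 19 GBR were called in siHic5/siNS, as were most GBR of the series. That list held 9533 peaks, and the 6 lists merged to 9736 GBR. Of the 19, 8 were called in no other list, against 58.7% of all siHic5/siNS GBR. The remainder were called in 2 lists (3 GBR), 3 lists (4 GBR), 4 lists (1 GBR), 5 lists (1 GBR) or all 6 lists (2 GBR), and 9.05% of all merged GBR were called in all 6.

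At least 1 GBR was found for 3 of the 9 genes in siNS/siNS (PER1, NR1D1 and BHLHE40), and 17.0% of the 20033 protein-coding genes had one in that list. In siHic5/siNS it was 5 of 9, with CRY2 and NR1D2 added, against 43.6% of all genes. The number was 2 in siCHD9/siNS (background 10.5%), 3 in siBRM/siNS (9.92%), 4 in siCHD9/siHic5 (16.4%) and 5 in siBRM/siHic5 (22.2%). The genes lost from the longest list were CRY2 in siCHD9/siHic5 and none in siBRM/siHic5. PER1 and BHLHE40 had a GBR in every list.

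**Figure D1:**
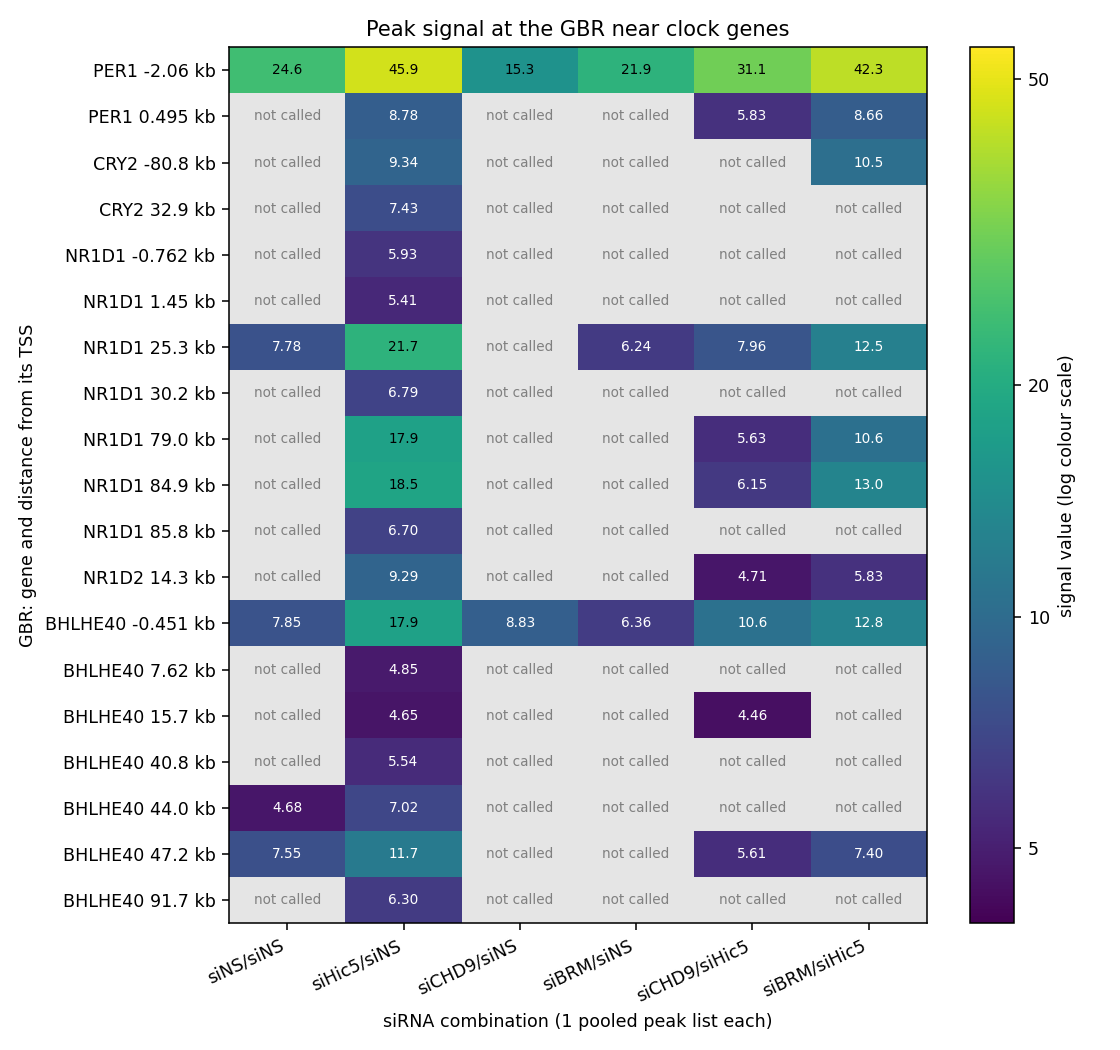
Heat map of the deposited signal value (log colour scale, no unit) for the 19 GBR near clock genes (rows, named by gene and distance of the summit from the TSS) in the pooled peak list of each of 6 siRNA combinations (columns), with grey cells where no peak was called. The siHic5/siNS column, from the longest list, which holds most GBR of the series, is filled in all 19 rows. PER1 -2.06 kb and BHLHE40 -0.451 kb are the 2 rows filled in all 6 columns.

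The PER and CRY genes encode the main negative limb of the clock. PER1 had the strongest site of the whole group. The GBR 2.06 kb upstream of the canonical PER1 TSS (chr17:8154120-8154933) lies in an intron of another PER1 transcript and of an overlapping protein-coding gene without a symbol. Its signal value was 24.6 in siNS/siNS, 45.9 in siHic5/siNS, 15.3 in siCHD9/siNS, 21.9 in siBRM/siNS, 31.1 in siCHD9/siHic5 and 42.3 in siBRM/siHic5. The signal was thus higher in the 3 lists from cells depleted of Hic-5 than in the 3 lists from cells containing it. How many of all GBR had this order was not counted, and the median ratios given below were also higher with Hic-5 depleted. It was high in each list, with a rank by −log10 p-value of 30 among 2582 peaks in siNS/siNS, 34 of 9533 in siHic5/siNS, 75 of 1415 in siCHD9/siNS, 38 of 1278 in siBRM/siNS, 29 of 2451 in siCHD9/siHic5 and 42 of 3383 in siBRM/siHic5. The 6 summits lay within 20 bp of each other, and the center of the GRE printed above, at chr17:8154460-8154474, was 7 bp from the siHic5/siNS summit.

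Signal values are set per list, so a ratio between lists was read only beside the ratios of all merged GBR called in both. At PER1 -2.06 kb the siHic5/siNS signal was 1.87 times the siNS/siNS signal, and the median over the 2470 GBR called in both lists was 1.71, with 60.0% of them below PER1. Depletion of CHD9 alone gave a ratio of 0.622 to the control (median 0.890, 13.9% of GBR below) and depletion of BRM alone 0.891 (median 0.767, 70.7% below). Depletion of CHD9 together with Hic-5 gave 0.677 of the siHic5/siNS signal (median 0.569, 69.0% below) and depletion of BRM together with Hic-5 0.921 (median 0.764, 72.4% below). Among cells depleted of CHD9, the signal with Hic-5 depleted was 2.04 times that with Hic-5 present, and 96.7% of the 1309 GBR called in both lists had a smaller ratio (median 1.11). Among cells depleted of BRM the same ratio was 1.93, with a median of 1.78 and 60.8% of 1211 GBR below. No error can be given for these ratios, since each is taken from 2 pooled lists.

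A second PER1 GBR had its summit 0.495 kb downstream of the TSS (chr17:8151148-8152220), in an intron of the canonical transcript. It was not called in the 3 lists from cells containing Hic-5. Its signal was 8.78 in siHic5/siNS, 5.83 in siCHD9/siHic5 and 8.66 in siBRM/siHic5, well under that of the upstream site in the same lists. Its rank was 4388 of 9533 in siHic5/siNS, in the middle of that list. The GRE at this site lay at chr17:8151912-8151926, 10 bp from the summit. PER1 has 10 other protein-coding TSS within 100 kb, but its own was the nearest to both GBR.

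PER2 and PER3, which encode the paralogs of PER1, had no GBR within 100 kb in any list. The nearest siHic5/siNS summit was 135 kb away for each, and in siNS/siNS it was 309 kb away for PER2 and 287 kb for PER3. CRY1 had none either, with the nearest siHic5/siNS summit at 256 kb and the nearest siNS/siNS summit over 1 Mb away.

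CRY2, a cryptochrome that acts with the PER proteins, had 2 GBR, both far from its TSS and neither called in siNS/siNS. The stronger one, 80.8 kb upstream (chr11:45766469-45766912), is intergenic, and the TSS of SLC35C1, a GDP-fucose transporter gene, was nearer at 38.5 kb. It was called in siHic5/siNS with a signal of 9.34 and in siBRM/siHic5 with 10.5, and in no other list. The ratio of 1.12 between these lists stood above that of 87.0% of GBR called in both. The other, 32.9 kb downstream in a CRY2 intron (chr11:45880022-45880714), was called in siHic5/siNS alone with a signal of 7.43, and the TSS of MAPK8IP1 was nearer at 5.26 kb.

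**Figure D2:**
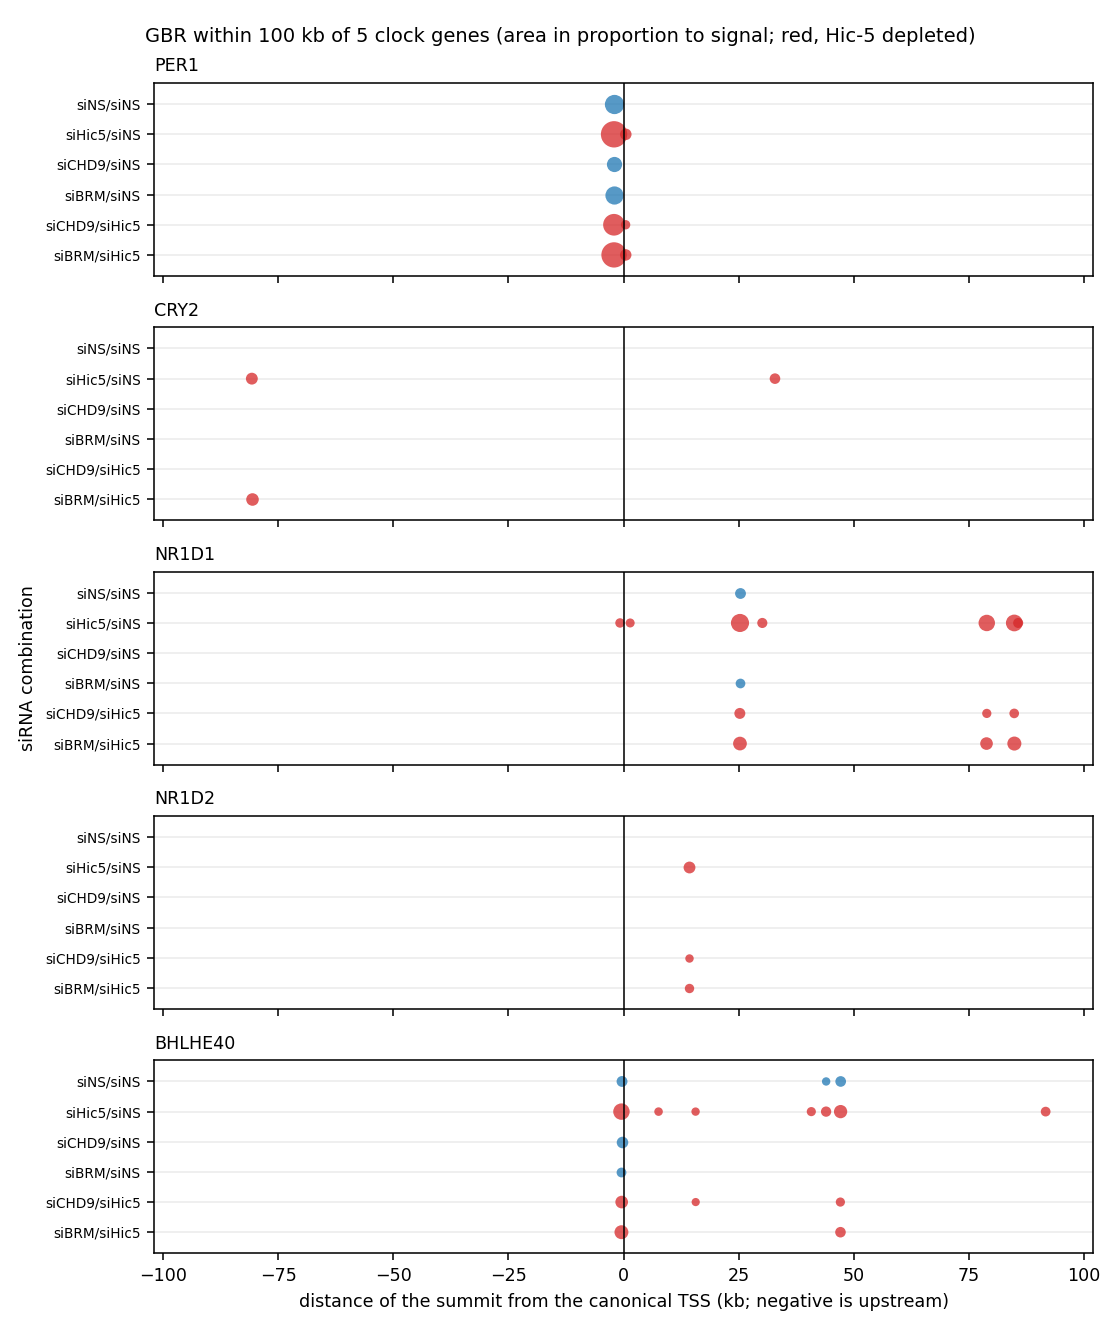
Position of each called GBR summit (horizontal axis, distance from the canonical TSS in kb, negative upstream) near 5 clock genes, with 1 row per siRNA combination, point area in proportion to the signal value, and red for lists from cells depleted of Hic-5. PER1 has its points within 2.1 kb of the TSS in all 6 rows, whereas the NR1D1 and BHLHE40 panels spread to 85.8 and 91.7 kb downstream in the siHic5/siNS row.

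NR1D1, which encodes REV-ERBα, had 7 GBR in siHic5/siNS, and 0.754% of all protein-coding genes had 7 or more in that list. It had 1 GBR in siNS/siNS, 0 in siCHD9/siNS, 1 in siBRM/siNS, and 3 in each of the double depletions. NR1D1 shares this neighborhood with 6 other protein-coding TSS, among them THRA, the thyroid hormone receptor α gene, and CSF3, which encodes the granulocyte colony-stimulating factor. The NR1D1 TSS was the nearest for 2 of the 7 GBR, so the others may be counted for these neighbors as well.

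The GBR called in the most lists was 25.3 kb downstream of the NR1D1 TSS in a THRA intron (chr17:40074948-40075935), 12.3 kb from the THRA TSS. Its signal was 7.78 in siNS/siNS, 21.7 in siHic5/siNS, 6.24 in siBRM/siNS, 7.96 in siCHD9/siHic5 and 12.5 in siBRM/siHic5, and it was not called in siCHD9/siNS. The siHic5/siNS value was the highest, and the siCHD9/siHic5 value was close to that of the control. The siHic5/siNS signal was 2.79 times the control signal, and 91.5% of the GBR called in both lists had a smaller ratio. Its rank by −log10 p-value was 1216 of 2582 in siNS/siNS and 482 of 9533 in siHic5/siNS, and ranks in lists of unequal length and threshold are not comparable.

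The pair of NR1D1 GBR beside the TSS was weak and was called in siHic5/siNS only. The one 0.762 kb upstream (chr17:40101093-40101560) had a signal of 5.93 and the one 1.45 kb downstream in an NR1D1 intron (chr17:40098946-40099503) had 5.41, at ranks 7593 and 8419 of 9533. A GBR at 30.2 kb in a THRA intron, with a signal of 6.79, and one at 85.8 kb, 0.627 kb from the CSF3 TSS, with 6.70, were also called in siHic5/siNS only.

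The GBR at 79.0 kb, in an intron of the Mediator subunit gene MED24, and at 84.9 kb, in an exon of a CSF3 transcript, were called together in the same 3 lists. At 79.0 kb the signal was 17.9 in siHic5/siNS, 5.63 in siCHD9/siHic5 and 10.6 in siBRM/siHic5. At 84.9 kb it was 18.5, 6.15 and 13.0 in the same order. Neither was called in the 3 lists from cells containing Hic-5. The CSF3 TSS was the nearest to both, at 6.20 and 0.216 kb.

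At the 3 NR1D1 GBR called in siCHD9/siHic5, the signal there was a small fraction of that after depletion of Hic-5 alone. The ratio was 0.366 at 25.3 kb, 0.316 at 79.0 kb and 0.332 at 84.9 kb, where the median of the 2340 GBR called in both lists was 0.569, and 12.6%, 5.21% and 7.78% of those GBR were lower. The siBRM/siHic5 ratios of the same GBR were 0.574, 0.592 and 0.704 around a median of 0.764, with 18.2%, 20.8% and 39.4% of 3295 GBR lower. Both sets of ratios have the siHic5/siNS values as denominator, and they cover only GBR that were still called.

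NR1D2, which encodes REV-ERBβ, had 1 GBR, 14.3 kb downstream of its TSS in its own intron (chr3:23959346-23959947). The signal was 9.29 in siHic5/siNS, 4.71 in siCHD9/siHic5 and 5.83 in siBRM/siHic5. It was not called in the 3 lists from cells containing Hic-5, in which the nearest summit to NR1D2 was 201 kb away. The ratio to siHic5/siNS was 0.507 after added depletion of CHD9 and 0.628 after added depletion of BRM, both below the medians given above.

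**Figure D3:**
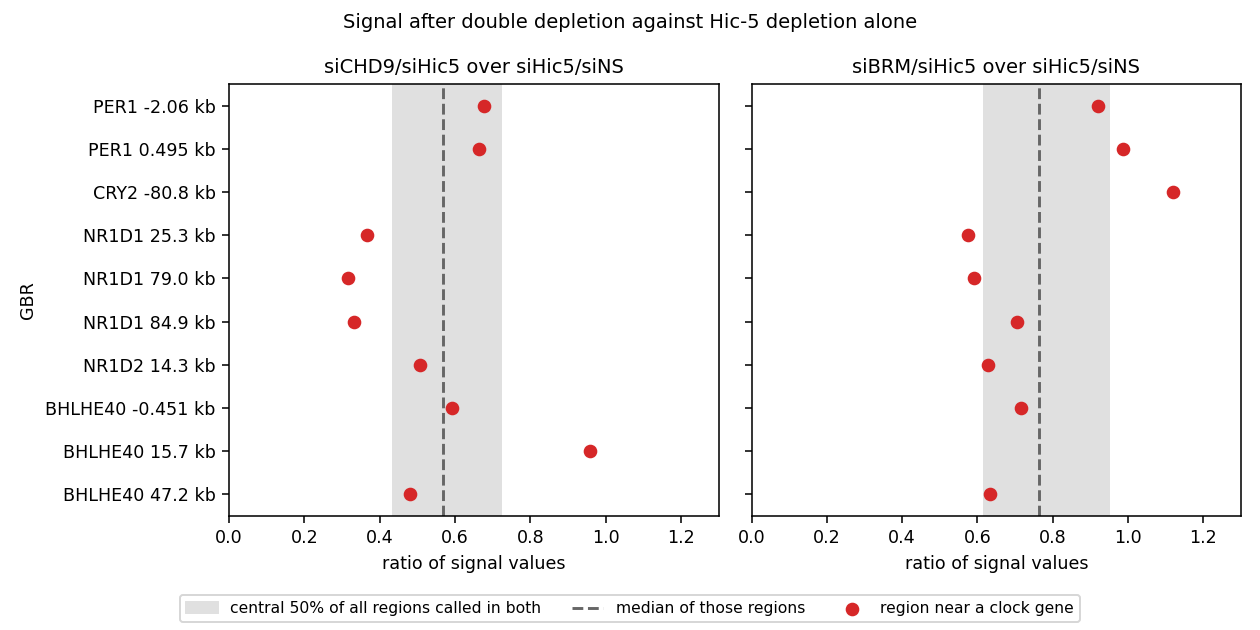
Ratio of the signal value after double depletion to that after depletion of Hic-5 alone (horizontal axis, no unit) for each GBR near a clock gene called in both lists (rows), for CHD9 (left) and BRM (right), with the median (dashed) and the central 50% (grey) of all GBR called in both. The 3 NR1D1 points lie left of the grey band in the CHD9 panel at 0.316 to 0.366, and the CRY2 point stands right of the band in the BRM panel at 1.12.

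BHLHE40, which encodes the transcriptional repressor DEC1, also had 7 GBR in siHic5/siNS, and no other protein-coding TSS lies within 100 kb of its own. It had 3 GBR in siNS/siNS, 1 in siCHD9/siNS, 1 in siBRM/siNS, 3 in siCHD9/siHic5 and 2 in siBRM/siHic5. The GBR at its promoter (chr3:4978087-4979533, siHic5/siNS summit 0.451 kb upstream) was called in all 6 lists and lies in an intron of the antisense RNA gene BHLHE40-AS1. Its signal was 7.85 in siNS/siNS, 17.9 in siHic5/siNS, 8.83 in siCHD9/siNS, 6.36 in siBRM/siNS, 10.6 in siCHD9/siHic5 and 12.8 in siBRM/siHic5. As at PER1 -2.06 kb, the 3 values from cells depleted of Hic-5 were above the 3 from cells containing it. The median GBR also had a higher signal with Hic-5 depleted, at ratios of 1.71, 1.11 with CHD9 depleted and 1.78 with BRM depleted. How many of all GBR had the same order of 6 values was not counted. The siHic5/siNS signal was 2.28 times that of the control, with 78.9% of GBR below. The added depletions gave 0.592 (CHD9, 54.4% below) and 0.716 (BRM, 41.8% below) of the siHic5/siNS signal, near the middle of all GBR. The peaks of this site were broad, at 736 to 1387 bp, and their summits were spread over 189 bp.

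The other BHLHE40 GBR lay downstream in intergenic sequence. The GBR at 47.2 kb (chr3:5026175-5027099) had signals of 7.55 in siNS/siNS, 11.7 in siHic5/siNS, 5.61 in siCHD9/siHic5 and 7.40 in siBRM/siHic5, and it was not called after depletion of CHD9 or BRM alone. The GBR at 44.0 kb had 4.68 in siNS/siNS and 7.02 in siHic5/siNS and was called in no other list. The siHic5/siNS to siNS/siNS ratios of 1.55 and 1.5 were below the median of 1.71. The GBR at 15.7 kb had signals of 4.65 in siHic5/siNS and 4.46 in siCHD9/siHic5, a ratio of 0.959, where the median was 0.569 and 91.3% of GBR were lower. The GBR at 7.62, 40.8 and 91.7 kb were called in siHic5/siNS only, with signals of 4.85, 5.54 and 6.30.

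BHLHE41, the DEC2 gene, had no GBR within 100 kb in any list, although its nearest siHic5/siNS summit was just outside at 115 kb, with a signal of 4.72. Over all 9 genes, the GBR just inside the distance limit was the BHLHE40 GBR at 91.7 kb and the one just outside was 111 kb downstream of PER1, with a signal of 6.68 and called in siHic5/siNS only. Weak GBR called in siHic5/siNS only thus stood on both sides of the distance limit.

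**Figure D4:**
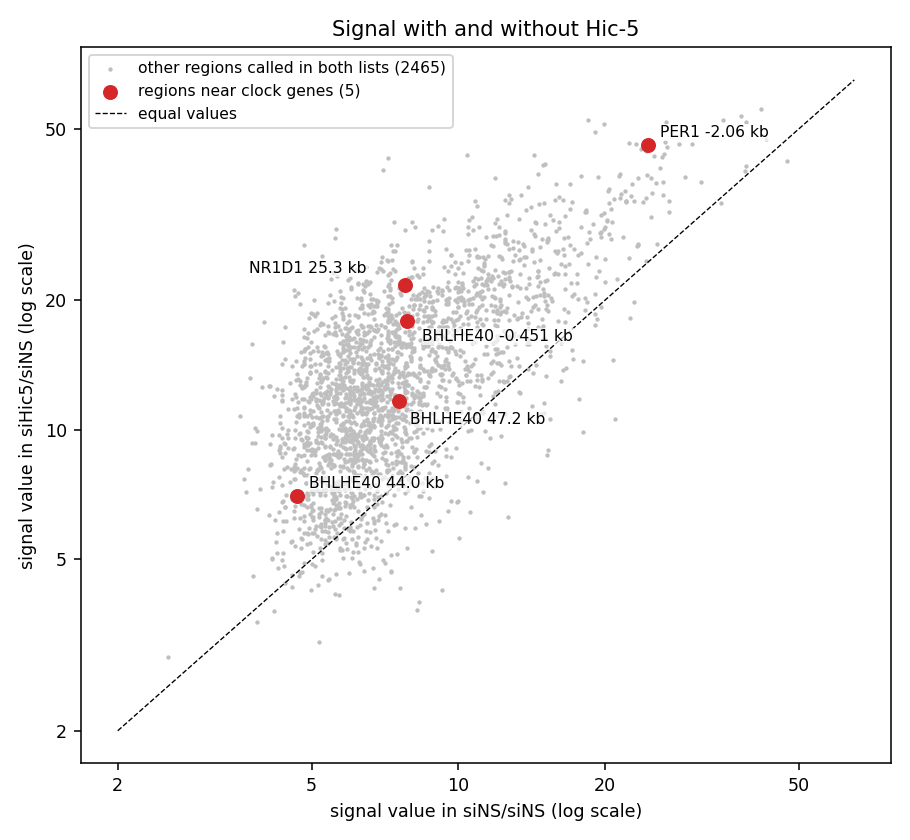
Signal value in siHic5/siNS against siNS/siNS (both log scales, no unit) for the 2470 merged GBR called in both lists, with the 5 near clock genes in red and a dashed line at equal values. All 5 red points lie above the line at ratios of 1.5 to 2.79, within the cloud of the other GBR.

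The first comparison asks which GBR were called only when Hic-5 was depleted. Of the 19 siHic5/siNS GBR near clock genes, 14 had no overlapping siNS/siNS peak, or 73.7% with a 95% Wilson interval of 51.2% to 88.2%. Over the whole list the share was 74.0%, so the clock genes stood at the background. The 5 GBR called in both lists were PER1 -2.06 kb, NR1D1 25.3 kb, and the BHLHE40 GBR at -0.451, 44.0 and 47.2 kb. PER1 -2.06 kb, NR1D1 25.3 kb and the BHLHE40 promoter were also the highest of the 19 by −log10 p-value in siHic5/siNS, at ranks 34, 482 and 571. Wilson intervals cover counting error only, and GBR of 1 gene share a locus and are not independent.

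The second comparison asks which GBR were still called when CHD9 or BRM was depleted in cells containing Hic-5. Of the 5 siNS/siNS GBR, 3 were absent from siCHD9/siNS (60.0%, interval 23.1% to 88.2%, background 51.4%) and 2 from siBRM/siNS (40.0%, 11.8% to 76.9%, background 52.2%). NR1D1 25.3 kb and the BHLHE40 GBR at 44.0 and 47.2 kb were missing after CHD9 depletion, and these BHLHE40 GBR after BRM depletion. With 5 GBR neither share could be told from its background.

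The third comparison asks the same in cells depleted of Hic-5. Of the 19 siHic5/siNS GBR, 10 were absent from siCHD9/siHic5 (52.6%, interval 31.7% to 72.7%), where the background was 75.4%, which lies above the interval. The 19 GBR lie near 5 genes and are not independent, so the interval is no test of this difference. With the lists cut at a common −log10 q-value of 14.2 the count was 11 of 14, against a background of 78.2%, so the difference was not seen at a common threshold. Also 10 were absent from siBRM/siHic5, and here the background of 65.4% lay inside the same interval. At the common threshold it was 5 of 14, against 50.5%. Both comparisons start from the siHic5/siNS list. The GBR that differed between them were CRY2 -80.8 kb, called in siBRM/siHic5 and not in siCHD9/siHic5, and BHLHE40 15.7 kb, called the other way round.

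The 4 GBR at PER1 0.495 kb, NR1D1 79.0 and 84.9 kb and NR1D2 14.3 kb had the same pattern of calls, absent from all 3 lists of cells containing Hic-5 and called in all 3 lists of cells depleted of it. Of all 9533 siHic5/siNS GBR, 4.19% were absent from siNS/siNS and called in both double depletions. This rule is looser than the pattern, since it leaves out siCHD9/siNS and siBRM/siNS, and by it the same 4 of 19 GBR were counted. The share of all GBR with the full pattern was not counted. The pattern was chosen after the values were seen, and the NR1D1 pair lies close together in 1 locus. In siCHD9/siHic5 all 4 were weak, with −log10 q-values of 8.98 to 11.7, below the lowest value of 14.2 in siBRM/siHic5, and at a threshold of 14.2 in every list none of the 4 was called in siCHD9/siHic5.

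The fourth comparison asks which GBR were called when Hic-5 was depleted together with a remodeler and not when that remodeler alone was depleted. Of the 9 siCHD9/siHic5 GBR, 7 were absent from siCHD9/siNS (77.8%, interval 45.3% to 93.7%, background 46.0%). Of the 9 siBRM/siHic5 GBR, 6 were absent from siBRM/siNS (66.7%, 35.4% to 87.9%, background 63.9%). PER1 -2.06 kb and the BHLHE40 promoter were called on both sides of each comparison, and NR1D1 25.3 kb on both sides of the BRM comparison only. At the common threshold the CHD9 count was 1 of 3, with a background of 50.4%, and the BRM count 8 of 9, with 81.4%.

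**Figure D5:**
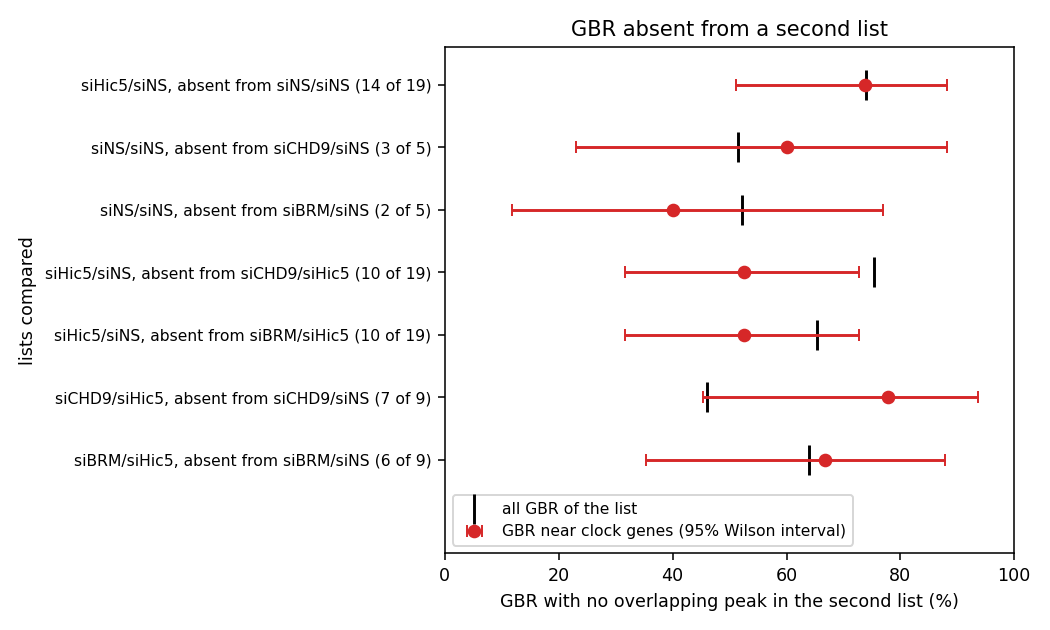
Share of the GBR near clock genes of 1 list with no overlapping peak in a second list (red points with 95% Wilson intervals, horizontal axis in percent) and the same share over all GBR of that list (black ticks), for 7 pairs of lists. The black tick lies inside the interval in 6 pairs and above it, at 75.4%, for siHic5/siNS against siCHD9/siHic5, where a common threshold gave 11 of 14 against 78.2%. The intervals cover counting error only and are no test, since GBR of 1 gene are not independent.

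Motifs were counted on both strands in windows of 1000 bp and 200 bp centered on the siHic5/siNS summits. A GRE was present at 2 of the 19 GBR, both at PER1, against 24.6% of all siHic5/siNS GBR in 1000 bp and 19.5% in 200 bp, and the match of 11 of 12 bases at PER1 -2.06 kb is one that 5.28% of all GBR had. A shorter GRE consensus with 10 defined positions and at most 1 mismatch, which also takes in both GRE, was present at 10 of 19, against 53.6%, and in 200 bp at 8 of 19, against 46.1%. No GRE was found in these windows at NR1D1, NR1D2, CRY2 or BHLHE40, including the BHLHE40 promoter that was called in all 6 lists. Such an absence says only that these letters were not in the window.

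The AP-1 word TGAGTCA or its reverse complement TGACTCA was present within 200 bp windows at 10 of 19 GBR, against 19.4% of all, and within 1000 bp at 11 of 19, against 37.1%. It stood 26 bp from the summit at NR1D1 -0.762 kb, 33 bp from it at CRY2 32.9 kb and 63 bp from it at the BHLHE40 promoter. BHLHE40 44.0 kb had 3 such words. Neither PER1 GBR had one. The ETS words CAGGAAGT and CCGGAAGT were found at BHLHE40 40.8 and 47.2 kb only (2 of 19, against 11.6% of all in 1000 bp and 4.76% in 200 bp).

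The E-box was present in 1000 bp at 7 of 19 GBR, against 14.1% of all, and in 200 bp at 1 of 19, against 3.64%. That 1 was NR1D1 1.45 kb, where the printed sequence holds E-boxes 2 and 17 bp from the summit and a further one lay 298 bp from it. The D-box words TTATGTAA and TTACGTAA, through which DBP and TEF act, were found in 1000 bp at NR1D1 1.45 kb and BHLHE40 91.7 kb (2 of 19, against 4.91%), and in 200 bp at the second of these (1 of 19, against 1.01%). In the RefSeq promoters, 300 bases each and matched for 9 of 9 genes, an E-box was present for PER1, NR1D2, BHLHE40 and BHLHE41 (7.26% of all promoters) and a D-box for PER2, PER3 and NR1D2 (1.01%). These percentages are per promoter, whereas a gene counted when any of its promoters matched, and some genes have more than 1. The NR1D2 matches lay in the promoter at chr3:23945871-23946170 and not in the one at its canonical TSS. Only the BHLHE40 promoter window was overlapped by a GBR, in all 6 lists. A match is a description of the sequence and not of binding by the clock factors.

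For the rest of the clock pathway, 18 further genes were looked up in the same way. A GBR within 100 kb was found for 4 of them in siNS/siNS, 8 in siHic5/siNS, 3 in siCHD9/siNS, 2 in siBRM/siNS, 3 in siCHD9/siHic5 and 4 in siBRM/siHic5, to be read beside the gene backgrounds given above. CSNK1D, the casein kinase 1δ gene whose product phosphorylates PER proteins, had the most GBR. The numbers were 4, 11, 4, 1, 6 and 4 in that order of lists. CSNK1D had its peak of highest −log10 p-value in siBRM/siHic5, with a signal of 25.6 (-23.9 kb from the TSS). Its paralog CSNK1E had 1 GBR in every list except siHic5/siNS, which had 5. The activator gene BMAL1 had 3 GBR, all in siHic5/siNS, the strongest with a signal of 9.92, and CLOCK had none. NPAS2, which can take the place of CLOCK, had 1, 6, 1, 0, 1 and 1 GBR, and the D-box activator gene TEF had 2, 3, 0, 0, 0 and 2. RORA, DBP and CIART had 1 each, in siHic5/siNS only, and BMAL2, RORB, HLF, NFIL3, TIMELESS, BTRC and FBXW11 had none in any list.

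The genes whose numbers of GBR over the 6 lists were most like those of the 2 richest clock genes were found by the sum of absolute differences. For NR1D1 they were FBXL18 and ACTB (a sum of 2 each), both on chromosome 7, and some of the same GBR may be counted for both. For BHLHE40 they were TGM2, LNX1 and SPG7 (2 each), with 7, 9 and 7 GBR in siHic5/siNS.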

How the data were processed

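GR ChIP-seq was analysed from 6 deposited peak lists, 1 per siRNA combination, made from 12 ChIP and 6 input libraries. The submitters' processing notes name BWA, MACS2 and DiffBind and the build GRCh38 (hg38), with versions not given in the sources used here. The authors pooled the 2 replicates of each combination and selected peaks with MACS2 and the IDR framework. Each list deposited by the authors gives peak position, summit, a signal value (fold enrichment in the MACS2 format, average enrichment in CPM in the study's legend, so its unit is uncertain), the −log10 p-value and the −log10 q-value, and a score in column 5 that was not used. The lists do not hold the depth.

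Summits were placed against canonical TSS of GENCODE release 44, and lists were matched by overlap of at least 1 bp. 0 peaks ran beyond a chromosome end. All 9 genes are named. A few other genes looked up are not reported here. For each gene the GBR nearest to the TSS and the one with the highest −log10 p-value were described in full. The members and lists were chosen with earlier results of these data known, and the signal ratios were added after values were seen. Percentages of GBR below a ratio are counted over merged GBR called in both lists. Alternatives were distances of 50 and 200 kb, any coding TSS, an overlap of 50%, the 1000 strongest peaks, a common and a stricter q-value threshold, and other GRE patterns and windows. Overlap and motif counting were tested on simulated data. Promoters came from RefSeq (GRCh38.p14). Python 3.11.15, pandas 2.3.3, SciPy 1.17.1, pysam 0.24.0, Matplotlib 3.10.9 and samtools 1.23.1 were used.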

Additional observations from a re-analysis of the deposited data

How the results depend on the processing

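Of 106 counts recomputed under the alternatives, 64 stayed within 1.5 times the reported count, among them all 16 with the TSS of any protein-coding transcript and all 7 with an overlap of 50% of the shorter peak. This range covers the counts and not the shares, whose totals also change. For siHic5/siNS GBR absent from siCHD9/siHic5, 11 of 14 at the common threshold was within range of 10 of 19, although the share was larger. No paired analysis was possible because each list pools its replicates, and for the same reason leaving out a replicate could not be run. The counts are small, so 1 or 2 GBR can carry a change, and the lists' unequal thresholds, and depths that the lists do not hold, limit what an absent call means.

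At 200 kb the GBR numbered 8 in siNS/siNS, 34 in siHic5/siNS and 14 in each double depletion, 8 of the 9 genes had a GBR in siHic5/siNS, and 4 GBR had a GRE. The share of all genes with a GBR within 200 kb is not given here, so 8 of 9 has no background. The lists are unchanged, so the backgrounds of absent calls and of the GRE are those given above. Then 26 of 34 siHic5/siNS GBR were absent from siNS/siNS and 20 of 34 from each of siCHD9/siHic5 and siBRM/siHic5, 5 and 4 of 8 siNS/siNS GBR from siCHD9/siNS and siBRM/siNS, 11 of 14 siCHD9/siHic5 GBR from siCHD9/siNS and 10 of 14 siBRM/siHic5 GBR from siBRM/siNS. At 50 kb, 9 of 14 siHic5/siNS GBR were absent from siNS/siNS and 3 of 6 siBRM/siHic5 GBR from siBRM/siNS.

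At a common −log10 q-value threshold of 14.2 there was 1 GBR in siBRM/siNS and 3 in siCHD9/siHic5. The sizes of the lists cut at this threshold or at 20 are not given here, so these numbers have no share beside them. Absent were 11 of 14 siHic5/siNS GBR from siCHD9/siHic5 (background 78.2%) and 5 of 14 from siBRM/siHic5 (50.5%), and 1 of 3 siCHD9/siHic5 GBR from siCHD9/siNS (50.4%). At a threshold of 20 there were 3 GBR in siNS/siNS, 9 in siHic5/siNS, 1 in siBRM/siNS and 2 in siCHD9/siHic5. Absent were 6 of 9 siHic5/siNS GBR from siNS/siNS (background 76.6%), 7 of 9 from siCHD9/siHic5 (78.2%) and 1 of 9 from siBRM/siHic5 (48.4%), 1 of 3 siNS/siNS GBR from siCHD9/siNS (56.4%), and 0 of 2 siCHD9/siHic5 GBR from siCHD9/siNS (51.7%).

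Among the 1000 strongest peaks of each list there were 3 GBR in siNS/siNS, 5 in siHic5/siNS, 2 in siCHD9/siHic5 and 4 in siBRM/siHic5. In siHic5/siNS 3 genes had a GBR, and 1 GBR had a GRE. The shares of all genes with such a peak and of the 1000 peaks with a GRE are not given here. Absent were 3 of 5 siHic5/siNS GBR from siNS/siNS (background 28.9%), 3 of 5 from siCHD9/siHic5 (29.8%) and 1 of 5 from siBRM/siHic5 (22.3%), 1 of 3 siNS/siNS GBR from siCHD9/siNS (26.6%) and 1 of 3 from siBRM/siNS (18.0%), 0 of 2 siCHD9/siHic5 GBR from siCHD9/siNS (20.3%) and 1 of 4 siBRM/siHic5 GBR from siBRM/siNS (25.4%). With at least 11 of 12 bases 1 of 19 GBR had a GRE (background 5.28%), and with the shorter consensus 10 had a match (53.6%). A wider distance or a stricter threshold changes how many GBR enter a count, and beyond that the cause of these changes was not tested.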
